A study of Mus musculus with 6 samples.

Results

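MHC class II genes and Cd83 were examined in splenic regulatory T cells (Tregs) with and without CREB. The genes were 9 of the class II pathway (H2-Aa, H2-Ab1, H2-Eb1, H2-Oa, H2-Ob, H2-DMa, H2-DMb1, Cd74 and Ciita) and Cd83, 10 genes in all. They were found by an exact match of their symbols in the platform annotation, which gave 11 transcript clusters of the 65956 on the array. A transcript cluster is the set of probes that the array reads as 1 transcript. Each class II gene had 1 cluster and Cd83 had 2, and the cluster of Cd74 was shared with the microRNA gene Mir5107, which overlaps it. In RefSeq the 7 H2 genes lie on chromosome 17, Cd74 on chromosome 18, Ciita on chromosome 16 and Cd83 on chromosome 13.

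The arrays compared 3 CREB-KO mice (Foxp3creCREBfl/fl) with 3 CREB-WT mice, all male, untreated, aged 10 to 12 weeks and of the B6 strain. In the CREB-KO mice Cre recombinase is made from the Foxp3 locus (Foxp3-IRES-Cre on C57BL/6) and removes the floxed Creb1 alleles in cells that express Foxp3. The controls are called WT in the labels and CREB-floxed mice in the methods, so the Cre allele goes along with the loss of CREB in every difference below. CD4+CD25+ cells were enriched from spleen with magnetic beads and sorted as CD4+CD25+Nrp1+, with a separate animal for each array.

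MHC class II molecules are pairs of an alpha and a beta chain that show peptides from endosomes to CD4 T cells. The invariant chain Cd74 fills the groove and guides the pair to the endosome, H2-DM exchanges the remaining fragment for a peptide, and H2-O restrains H2-DM. The coactivator CIITA is recruited to the promoters of these genes by factors on the X, X2 and Y boxes, among them RFX, members of the CREB family and NF-Y. Professional antigen-presenting cells (B cells, macrophages and dendritic cells) express the pathway, and mouse T cells are known for little or none of it. CD83 is a surface protein of mature dendritic cells, activated lymphocytes and Tregs, and it shields class II molecules and CD86 from the ubiquitin ligase MARCH1.

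The promoter stretches are shown because the pathway's genes share a promoter layout in which a CREB family site can lie. RefSeq promoters (GRCm38.p6, 250 bases before to 50 after the start) were given for 6 of the 10 genes, with 2 entries for H2-DMa. On each, GNAAC, letters within the X box, was searched on both strands when followed within 60 bases by GATTGG, the core of the Y box read on the same strand. This pair was present for 5 of the 6 genes and in 3.08% of the 32851 promoters of the same length. Both entries of H2-DMa lacked it, and the second held GATTGG alone. Capitals mark both motifs and, in H2-Aa, the palindrome TGACGTCA, the canonical cAMP response element.
H2-Aa (chr17:34287861-34287910, minus strand, bases -87 to -38): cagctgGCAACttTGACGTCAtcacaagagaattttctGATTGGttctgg
H2-Eb1 (chr17:34305770-34305818, plus strand, bases -97 to -49): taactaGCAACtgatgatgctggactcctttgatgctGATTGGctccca
H2-Oa (chr17:34092297-34092346, plus strand, bases -82 to -33): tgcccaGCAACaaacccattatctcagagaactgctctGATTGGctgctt
H2-Ob (chr17:34238812-34238858, plus strand, bases -93 to -47): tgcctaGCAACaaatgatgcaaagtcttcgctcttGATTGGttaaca
H2-DMb1 (chr17:34153091-34153140, plus strand, bases -100 to -51): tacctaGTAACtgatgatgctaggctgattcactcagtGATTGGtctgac

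They lay 24 to 27 bases apart and did not overlap each other or the palindrome. TGACGTCA stood in the H2-Aa promoter and in none of the other entries of these genes, and 1.79% of all promoters held it. GATTGG, with or without GNAAC, was found in 16.1% of them. The motifs were chosen after the promoters had been seen, and a match describes letters, not binding.

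Levels are the deposited log2 values, and a difference is CREB-KO minus CREB-WT. The medians of all clusters were 4.55 to 4.58 on the CREB-KO arrays and 4.48 to 4.53 on CREB-WT arrays, and arrays correlated at 0.980 to 0.988 over all clusters. Creb1, the targeted gene, read 14.10, 14.39 and 14.79 on the arrays labelled CREB-KO and 13.30, 13.94 and 13.34 on those labelled CREB-WT. That is a difference of 0.90 ± 0.25 (SE), in the direction opposite to a deletion. The annotation does not say where its probes fall relative to the deleted exons. Creb1 is therefore no check of the genotype, and directions are given between arrays as labelled. T cell genes were strongly measured. Cd3e read 16.78 to 17.36 on CREB-KO arrays and 17.10 to 17.24 on CREB-WT arrays, above 16, the log2 ceiling of a common scanner. The mean of the T cell and Treg markers, each centred on its own mean over the arrays, was lowest on CREB-KO replicate 1. It stood at -0.30, 0.16 and 0.04 on CREB-KO arrays and at -0.02, -0.10 and 0.22 on CREB-WT arrays. CREB-KO replicate 1 was also the lowest array for Cd4 (12.98) but the highest for Cd3g (15.66). Foxp3 and Nrp1 lie on clusters shared with other genes and were not analysed here.

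**Figure D1:**
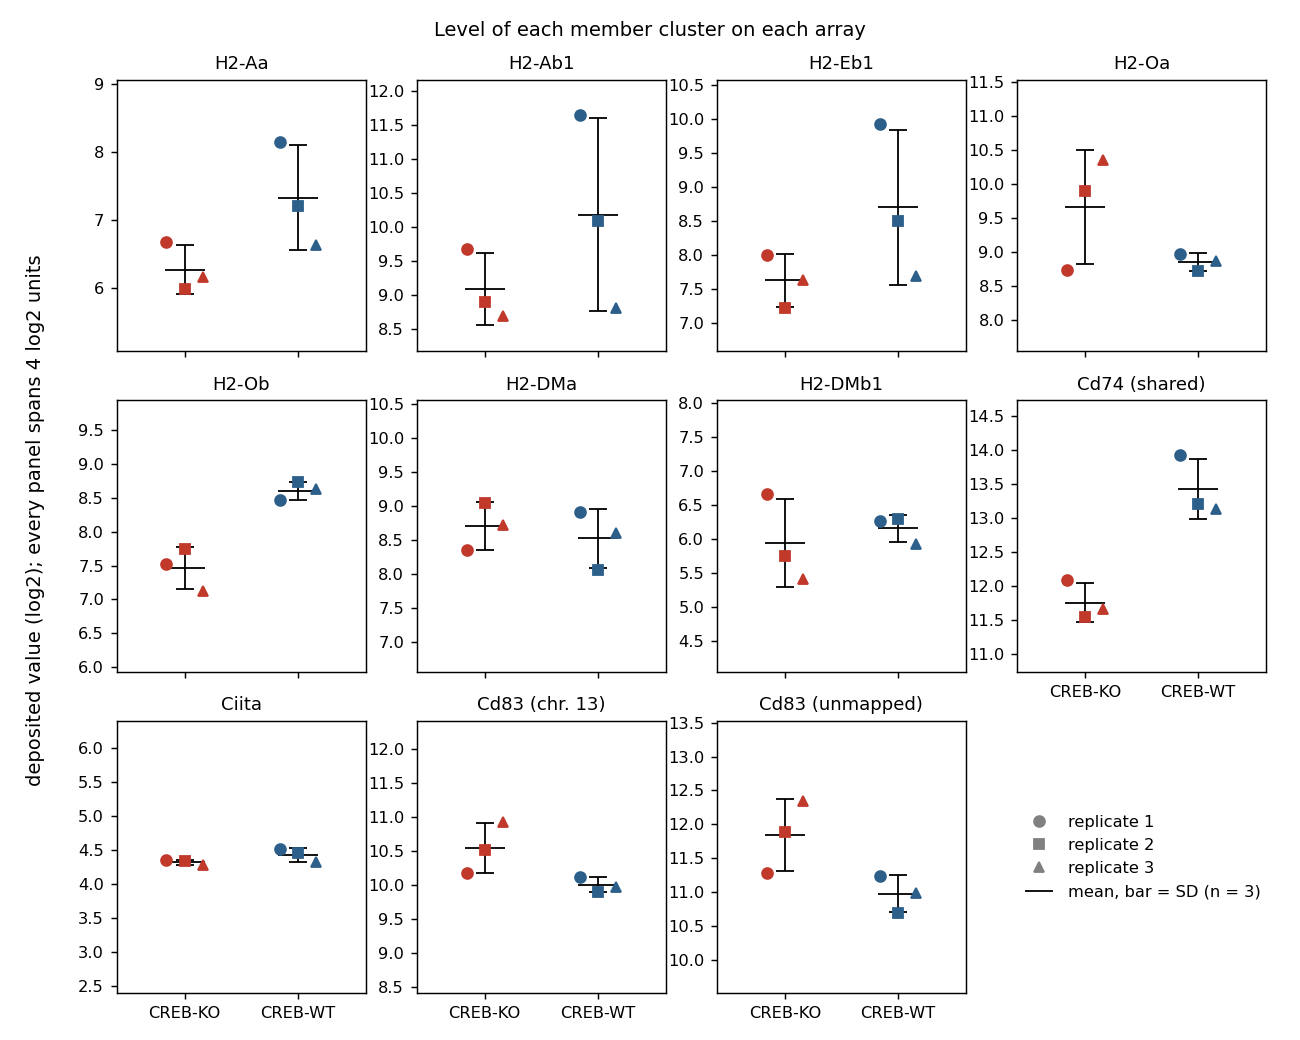
Deposited log2 value (y axis) of each of the 11 clusters on each array, with CREB-KO left and CREB-WT right, symbols for the replicate number, and the mean with its SD (n = 3). Every panel spans the same height; Cd74 and H2-Ob show 2 separate groups, and the H2-Aa, H2-Ab1 and H2-Eb1 panels show the widest CREB-WT spread.

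At the study thresholds (a fold of at least 1.5 and an unadjusted p of at most 0.05, here from limma) the clusters of H2-Aa, H2-Ob and Cd74 were lower and 1 of the 2 Cd83 clusters was higher. The other 7 clusters did not pass. Over the whole array 0.728% of clusters were lower and 1.62% were higher at the same thresholds. All 3 CREB-KO arrays lay below all 3 CREB-WT arrays for 2 member clusters, H2-Ob and Cd74, against 3.29% of all clusters. They lay above for both Cd83 clusters, against 7.87% of all clusters, by margins of 0.04 and 0.05. These margins are smaller than the distance between the medians of all clusters on the arrays that set them (CREB-KO replicate 1 4.55, CREB-WT replicate 1 4.48). Of the 9 class II clusters 7 had a difference below 0, and their median was -1.05, beside 0.05 over all clusters. Without CREB-WT replicate 1 that median was -0.37, and without both arrays numbered 1 (chosen after the data were seen) it was -0.67. Leaving out the shared cluster of Cd74, the median of the other 8 was -0.64 on all arrays. No cluster on the array passed an adjusted p of 0.05 in limma (0 of 65956, with 3689 at an unadjusted p under 0.05), and with 3 arrays on each side the smallest exact permutation p is 0.1.

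**Figure D2:**
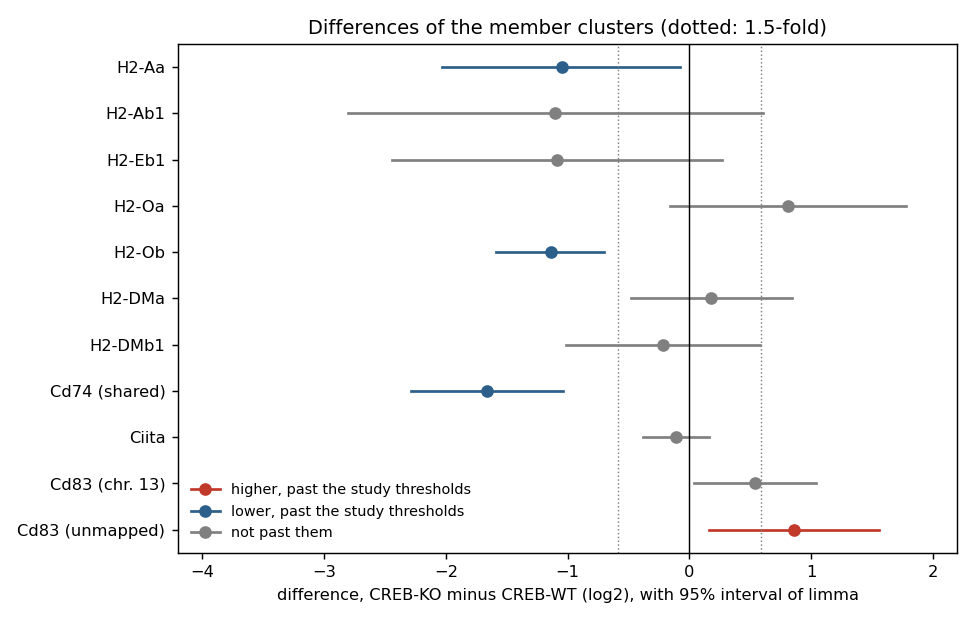
Difference of each cluster, CREB-KO minus CREB-WT (x axis, log2), with limma's 95% interval. Dotted lines mark 1.5-fold; H2-Ob and Cd74 have intervals wholly below the lower line, and the intervals of H2-Ab1, H2-Eb1 and H2-Oa cross 0.

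Among the chains of the peptide-presenting pairs I-A and I-E, H2-Aa was lower on the CREB-KO arrays. H2-Ab1 and H2-Eb1 had differences of much the same size that did not pass. H2-Aa (cluster TC1700001905.mm.1), the alpha chain of I-A, read 6.68, 5.98 and 6.16 on CREB-KO arrays and 8.15, 7.20 and 6.63 on CREB-WT arrays. CREB-KO replicate 1 lay just above CREB-WT replicate 3, so the groups overlapped. The difference was -1.05 ± 0.40 (SE; 95% interval -2.03 to -0.08), at p 0.0378 before adjustment (limma, adjusted p 0.88). The call ended without CREB-KO replicate 2 (-0.91), CREB-KO replicate 3 (-1.0), CREB-WT replicate 1 (-0.64) or CREB-WT replicate 2 (-1.12).

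H2-Ab1 (TC1700002781.mm.1), the beta chain of I-A, read 9.68, 8.89 and 8.68 on CREB-KO arrays and 11.65, 10.09 and 8.81 on CREB-WT arrays. Its CREB-WT values spread over 2.83 log2 units, and CREB-WT replicate 3 lay within the CREB-KO range. The difference was -1.10 ± 0.70 (interval -2.80 to 0.60; adjusted p 0.913 in limma). H2-Eb1 (TC1700002782.mm.1), the beta chain of I-E, read 8.0, 7.22 and 7.63 on CREB-KO arrays and 9.93, 8.50 and 7.68 on CREB-WT arrays, again with CREB-WT replicate 3 inside the CREB-KO range. Its difference was -1.09 ± 0.56 (interval -2.44 to 0.27; adjusted p 0.913 in limma). Without CREB-WT replicate 3 both were past the study thresholds, at -1.79 for H2-Ab1 and -1.60 for H2-Eb1. Without CREB-WT replicate 1 the differences were -0.37 for H2-Ab1 and -0.47 for H2-Eb1, so the size of both rests on which CREB-WT arrays are read.

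These 3 chains followed each other from array to array. The mean of their values, each centred on its own mean over the 6 arrays, was -0.08, -0.83 and -0.71 on CREB-KO arrays and 1.71, 0.40 and -0.49 on CREB-WT arrays. The distance of each chain from this shared profile (root mean square over the 6 arrays, which the chains themselves make up) was 0.20 for H2-Aa, 0.218 for H2-Ab1 and 0.0968 for H2-Eb1. Cd74 lay at 0.508 and the remaining members at 0.729 or more. These genes are not part of the profile, so their distances cannot be compared with those of the chains. The distance also depends on the size of a gene's changes, not only on their pattern.

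Cd74, the invariant chain, had the largest difference of the 11 clusters and was lower. Its shared cluster (TC1800000617.mm.1) read 12.08, 11.53 and 11.65 on CREB-KO arrays and 13.92, 13.20 and 13.13 on CREB-WT arrays. Each CREB-KO array lay at least 1.06 below each CREB-WT array, which is more than the spread within either group. The means were 11.75 ± 0.29 on CREB-KO and 13.42 ± 0.44 on CREB-WT arrays (SD, n = 3 each), a difference of -1.66 ± 0.26 (SE) or 3.17-fold lower (interval -2.29 to -1.04; unadjusted p 0.000547, adjusted p 0.511 in limma). It kept its call in 13 of the 13 alternatives that could be run for it, between -1.82 and -1.41. The probes cannot tell Cd74 from Mir5107.

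CREB-WT replicate 3, which lay with the CREB-KO arrays for the 3 chains, read 13.13 for Cd74, with the other CREB-WT arrays. Within an array, the Cd74 value minus the mean of H2-Aa, H2-Ab1 and H2-Eb1 was 3.96, 4.17 and 4.16 on CREB-KO arrays and 4.01, 4.60 and 5.42 on CREB-WT arrays. CREB-WT replicates 2 and 3 lay above all CREB-KO arrays and CREB-WT replicate 1 lay among them, so the groups overlapped.

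Ciita (TC1600000116.mm.1), the coactivator of class II promoters, read 4.35, 4.34 and 4.28 on CREB-KO arrays and 4.52, 4.46 and 4.32 on CREB-WT arrays. All 6 values lay around the median of all clusters, a level at which differences carry little information, and the groups overlapped. The difference was -0.11 ± 0.11 (interval -0.38 to 0.16; adjusted p 0.938 in limma). Ciita overlaps Dexi in RefSeq, whose own cluster differed by -0.12 ± 0.15 (adjusted p 0.953 in limma).

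The chains of H2-O, the brake on H2-DM, had differences of opposite sign. H2-Ob (TC1700000625.mm.1), the beta chain, read 7.52, 7.74 and 7.13 on CREB-KO arrays and 8.46, 8.73 and 8.62 on CREB-WT arrays. The groups were 0.72 apart, and the CREB-WT arrays lay within 0.27 of each other. H2-Ob was 2.21-fold lower, at a difference of -1.14 ± 0.18 (SE; interval -1.59 to -0.70; unadjusted p 0.000653, adjusted p 0.548 in limma). It stayed past the study thresholds in 14 of 14 alternatives, between -1.28 and -0.98.

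H2-Oa (TC1700000614.mm.1), the alpha chain, read 8.73, 9.90 and 10.35 on CREB-KO arrays and 8.97, 8.72 and 8.87 on CREB-WT arrays. CREB-KO replicate 1 fell within the control range, and the other CREB-KO arrays lay above all control arrays. The difference was 0.81 ± 0.40 (interval -0.16 to 1.78; unadjusted p 0.0871, adjusted p 0.912 in limma), which did not pass. Without CREB-KO replicate 1 it was 1.28 (unadjusted p 0.000745 in limma) and past the study thresholds. H2-Oa overlaps BC051537 in RefSeq, whose own cluster differed by 0.40 ± 0.18 (adjusted p 0.912 in limma).

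Within an array, the H2-Oa value minus the H2-Ob value was 1.21, 2.16 and 3.22 on CREB-KO arrays and 0.50, -0.01 and 0.25 on CREB-WT arrays. Each CREB-KO array lay above each CREB-WT array, by a mean of 1.95. This measure was chosen after the values of both genes were seen and is given without a test. Both promoters hold the X and Y box letters printed above.

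The chains of H2-DM did not pass. H2-DMa (TC1700000618.mm.1), the alpha chain, read 8.35, 9.04 and 8.72 on CREB-KO arrays and 8.91, 8.06 and 8.60 on CREB-WT arrays. The difference was 0.18 ± 0.27 (interval -0.48 to 0.84; adjusted p 0.965 in limma). H2-DMb1 (TC1700002780.mm.1), a beta chain, read 6.67, 5.75 and 5.41 on CREB-KO arrays and 6.27, 6.29 and 5.93 on CREB-WT arrays. The difference was -0.22 ± 0.33 (interval -1.01 to 0.58; adjusted p 0.965 in limma). For both the groups overlapped, and the sign turned when a single array was left out (H2-DMa -0.05 at its lowest, H2-DMb1 0.05 at its highest). H2-DMb1 has a near-identical copy, H2-DMb2, so its probes may read both, and H2-DMb2 differed by -0.14 ± 0.21. H2-DMa overlaps Brd2, whose own cluster differed by 0.01 ± 0.14.

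Cd83 had 1 cluster that was higher and 1 that fell short of the fold. The cluster with no mapped position (TSUnmapped00000047.mm.1) read 11.29, 11.89 and 12.34 on CREB-KO arrays and 11.24, 10.70 and 10.99 on CREB-WT arrays. The CREB-KO arrays lay above the CREB-WT arrays by a margin of 0.04, set by both arrays numbered 1, whose medians over all clusters lay farther apart (4.55 and 4.48). The means were 11.84 ± 0.53 on CREB-KO and 10.98 ± 0.27 on CREB-WT arrays (SD, n = 3 each), a difference of 0.86 ± 0.29 (SE) or 1.82-fold (interval 0.16 to 1.56; unadjusted p 0.0236, adjusted p 0.863 in limma). The call ended without CREB-KO replicate 2 (0.83), CREB-KO replicate 3 (0.61), CREB-WT replicate 2 (0.72) or CREB-WT replicate 3 (0.87), and after quantile normalization (0.78, unadjusted p 0.051 in limma).

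The Cd83 cluster on chromosome 13 (TC1300000498.mm.1) read 10.17, 10.51 and 10.92 on CREB-KO arrays and 10.12, 9.90 and 9.97 on CREB-WT arrays. It gave the same order of the CREB-KO arrays and a margin between the groups of 0.05, again less than the distance between the medians of the arrays numbered 1. Its difference was 0.54 ± 0.21 (SE; interval 0.04 to 1.04; unadjusted p 0.0371, adjusted p 0.88 in limma), or 1.45-fold, short of 1.5. Without CREB-KO replicate 1 it was 0.72 and past the study thresholds. Within an array, the first cluster minus the second was 1.11, 1.38 and 1.42 on CREB-KO arrays and 1.12, 0.80 and 1.02 on CREB-WT arrays, and the groups overlapped. In the plot of centred levels, Cd83 (mean of both clusters) stood at -0.11, 0.37 and 0.79 on CREB-KO arrays and at -0.16, -0.54 and -0.36 on CREB-WT arrays. H2-Oa had the same order of CREB-KO arrays, at -0.53, 0.65 and 1.09, and stood at -0.29, -0.54 and -0.39 on CREB-WT arrays. That order is not particular to these genes. The mean of the T cell activation genes in the same plot had it too, at -0.34, 0.11 and 0.19. CREB-KO replicate 1 was also the lowest CREB-KO array for the T cell and Treg markers (-0.30) and for genes of MHC class I presentation (-0.15).

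**Figure D3:**
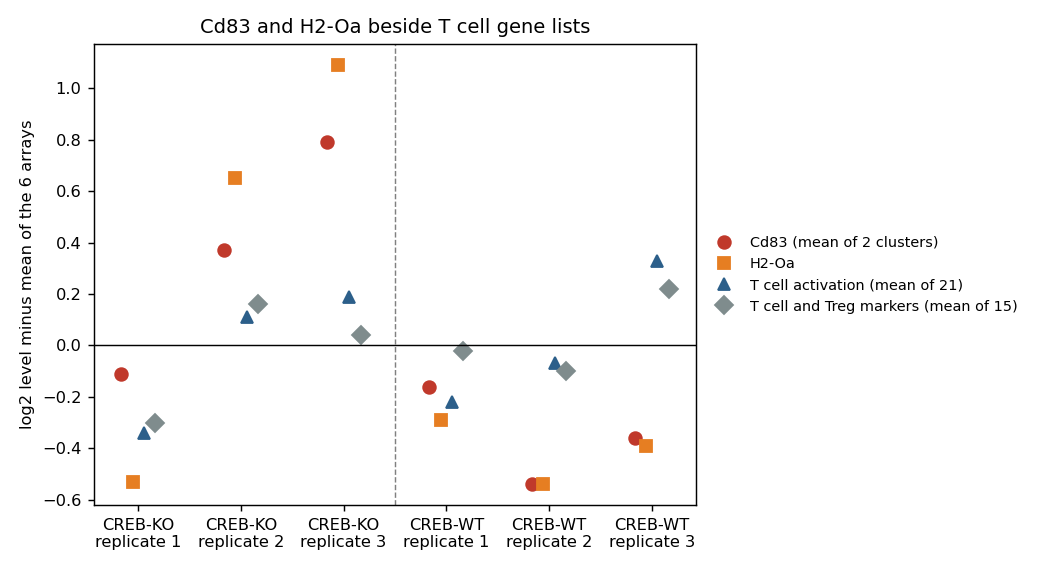
Log2 level minus the mean of the 6 arrays (y axis) on each array (x axis; CREB-KO left of the dashed line) for Cd83 (mean of its 2 clusters), H2-Oa and the means of 2 lists of T cell genes. Cd83 and H2-Oa are both highest on CREB-KO replicate 3 (0.79 and 1.09), while the activation list is highest on CREB-WT replicate 3 (0.33). Among the CREB-KO arrays, replicate 1 is the lowest for both genes and both lists.

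**Figure D4:**
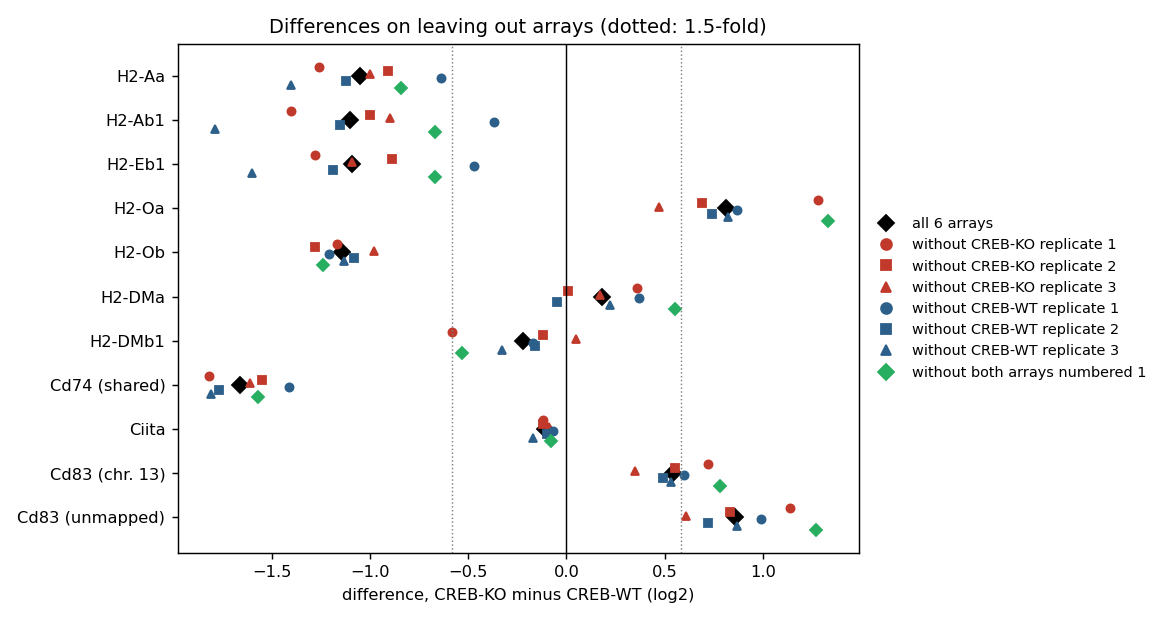
Difference of each cluster, CREB-KO minus CREB-WT (x axis, log2), on all 6 arrays (black) and with arrays left out (symbols in the legend); dotted lines mark 1.5-fold. H2-Ob and Cd74 stay below the lower line throughout, H2-Ab1 and H2-Eb1 run from below it to above it, and the Cd83 cluster on chromosome 13 lies on both sides of the upper line.

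The rest of the class II pathway had few genes past the study thresholds, which 0.659% of the 30176 genes with a cluster of their own passed as lower and 0.911% as higher. Of the 3 other class II chains 0 passed. H2-Eb2 differed by -0.27 ± 0.16, and H2-Ea, the alpha chain of I-E that C57BL/6 mice do not make, by 0.22 ± 0.13 at 3.99 to 4.15 on CREB-KO arrays and 3.67 to 4.0 on CREB-WT arrays. Of 7 measured genes of endosomal antigen processing 0 passed, with a median difference of -0.28 beside 0.04 over all genes. The median ranged from -0.52 (without CREB-WT replicate 2) to -0.02 (without CREB-WT replicate 1) on leaving out 1 array, and was 0.04 without both arrays numbered 1. Ctsl, the protease cathepsin L, read 6.61, 6.65 and 6.56 on CREB-KO arrays and 7.24, 7.03 and 7.02 on CREB-WT arrays, without overlap, but its difference of -0.49 ± 0.12 (adjusted p 0.721 in limma) was short of 1.5-fold. Lgmn, an asparagine endopeptidase of the endosome, differed by -1.38 ± 0.75 (adjusted p 0.913 in limma) over a wide spread, with 8.43, 7.04 and 5.77 on CREB-KO arrays and 9.51, 7.87 and 8.01 on CREB-WT arrays.

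Of 8 measured factors that act on class II promoters 1, Creb1 itself, was higher and 0 were lower. The median of these factors was -0.11, and 0.04 without CREB-WT replicate 3. Nfyb, a subunit of NF-Y, differed by -0.30 ± 0.18. Of 11 measured genes that induce CIITA or work with it 0 passed, with a median of -0.07, and -0.21 without CREB-KO replicate 3. The largest differences in units of their error were those of Ifngr1, a chain of the interferon-gamma receptor, at -0.58 ± 0.19 (adjusted p 0.86 in limma), and of the kinase Jak2 on the receptor's other chain, at 0.46 ± 0.16 (adjusted p 0.869 in limma). Ifngr1 read 11.95, 12.46 and 12.56 on CREB-KO arrays and 12.89, 12.75 and 13.07 on CREB-WT arrays, all CREB-KO arrays below all CREB-WT arrays.

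Around CD83 and MARCH1, of 5 measured genes 1 was lower. Cd80, a ligand of CD28 and CTLA-4, read 6.76, 7.51 and 7.12 on CREB-KO arrays and 8.15, 7.96 and 7.79 on CREB-WT arrays, without overlap. Its difference was -0.84 ± 0.22 (unadjusted p 0.00723, adjusted p 0.787 in limma), and the call ended without both arrays numbered 1 (-0.56). Cd86, the other ligand of these receptors and a second target of MARCH1, read 10.33, 9.63 and 9.73 on CREB-KO arrays and 9.23, 9.62 and 9.18 on CREB-WT arrays. The groups did not overlap, but CREB-KO replicate 2 lay only 0.01 above CREB-WT replicate 2. That is less than the distance between the medians of these arrays over all clusters (4.56 and 4.53). The difference of 0.56 ± 0.23 (adjusted p 0.894 in limma) was short of the fold. Marchf1, the ligase gene, differed by -0.15 ± 0.18.

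MHC class I presentation, the counterpart that nearly every nucleated cell uses, had 0 of 14 measured genes past the thresholds in either direction, with differences from -0.16 to 0.21. Their median was 0.02, and -0.03 to 0.09 on leaving out 1 array. The 2 with the smallest p were Canx, which encodes the chaperone calnexin, at 0.18 ± 0.13, and Tapbpl, a relative of tapasin, at -0.16 ± 0.14. The class II members ran from -1.66 to 0.81.

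Markers of macrophages, B cells and dendritic cells are set beside the class II chains, and their part in the class II differences was not tested. In bulk RNA, fewer cells of a type and less RNA per cell cannot be told apart. Of 19 measured macrophage and monocyte markers 18 had a difference below 0 and 0 were past the study thresholds, with a median of -0.78. That median was -0.38 without CREB-WT replicate 1, -0.42 without CREB-KO replicate 3 and -1.28 without CREB-KO replicate 1. Their mean level was 6.07 to 8.02 on CREB-KO arrays and 7.05 to 8.54 on CREB-WT arrays. Csf1r, the M-CSF receptor of macrophages, read 9.40, 7.37 and 5.84 on CREB-KO arrays and 10.42, 9.90 and 7.85 on CREB-WT arrays, and the complement gene C1qa 6.50, 4.65 and 5.51 on CREB-KO arrays and 7.42, 5.92 and 4.91 on CREB-WT arrays. Centred on each gene's mean, the list stood at 0.60, -0.60 and -1.35 on CREB-KO arrays and at 1.12, 0.60 and -0.37 on CREB-WT arrays, so the arrays numbered 1 were the highest of their groups, as for the 3 chains. Of the 2 markers with the smallest p, Itgam differed by -0.38 ± 0.16 and Fcgr1 by -0.89 ± 0.46.

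**Figure D5:**
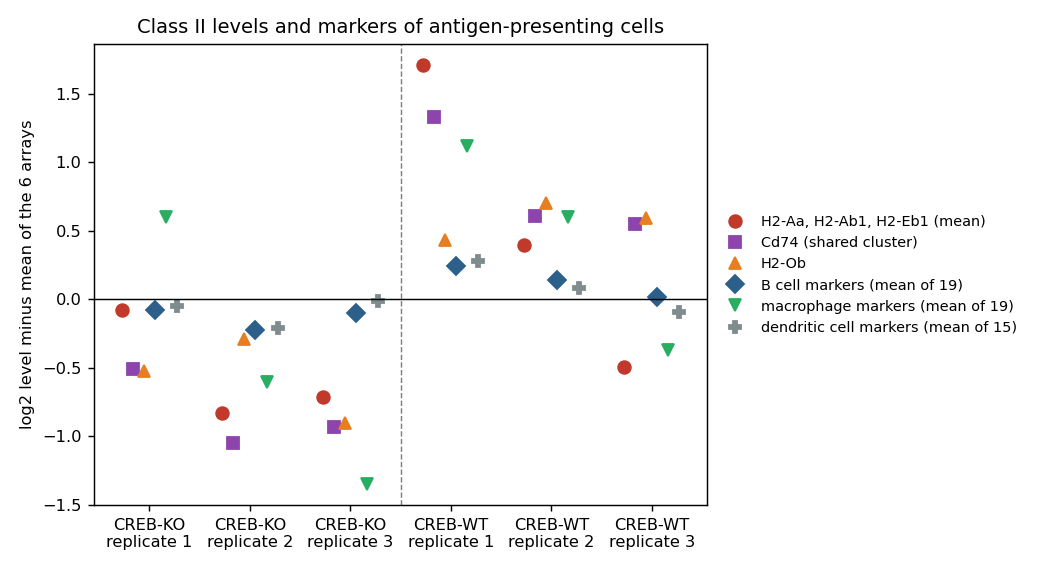
Log2 level minus the mean of the 6 arrays (y axis) on each array (x axis; CREB-KO left of the dashed line) for class II members and the means of 3 marker lists. The 3 chains and the macrophage list are highest on CREB-WT replicate 1, while Cd74 and H2-Ob are below 0 on all CREB-KO arrays and above 0 on all CREB-WT arrays.

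On some arrays the macrophage list lay on the other side of 0 from Cd74 and H2-Ob. On CREB-KO replicate 1 the list stood at 0.60, while Cd74 stood at -0.51 and H2-Ob at -0.52. On CREB-WT replicate 3 the list stood at -0.37, while Cd74 stood at 0.55 and H2-Ob at 0.59. The mean of the 3 chains minus that of the macrophage list was -0.68, -0.23 and 0.64 on CREB-KO arrays and 0.60, -0.20 and -0.12 on CREB-WT arrays, with overlap between the groups.

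B cell markers had a median difference of -0.14, with 14 of the 19 measured below 0 and 2 called lower. The median was -0.27 without CREB-KO replicate 2. Centred on each gene's mean, the list stood at -0.08, -0.22 and -0.10 on CREB-KO arrays and at 0.24, 0.14 and 0.02 on CREB-WT arrays. These signs are those of Cd74 and H2-Ob, but on CREB-WT replicate 3 the list lay only 0.02 above 0, beside 0.55 and 0.59. For none of the 3 marker lists does the side of 0 tell which cells the class II RNA came from, which was not tested. The mean of the 3 chains minus that of this list averaged -0.41 on CREB-KO arrays and 0.41 on CREB-WT arrays, a difference of -0.82, with overlap between the groups. The mean level of the B cell list was 5.50 to 5.65 on CREB-KO arrays and 5.74 to 5.96 on CREB-WT arrays, without overlap, and 4 of the 19 lay at or below the median cluster level. Cd72, a coreceptor of B cells, read 6.78, 6.35 and 6.98 on CREB-KO arrays and 9.16, 7.98 and 7.54 on CREB-WT arrays. The difference was -1.52 ± 0.42 (adjusted p 0.814 in limma). Fcmr, the receptor for IgM, differed by -0.69 ± 0.23, a call lost on leaving out CREB-WT replicate 3 (-0.45) or CREB-KO replicate 3 (-0.60). The call of Fcmr held in 10 of the 14 alternatives. Among the defining markers, Pax5 read 4.73 to 4.86 on CREB-KO arrays and 4.71 to 5.21 on CREB-WT arrays, Ms4a1 4.34 to 5.33 on CREB-KO and 4.76 to 6.05 on CREB-WT arrays, and Cd79a 6.23 to 6.62 on CREB-KO and 6.63 to 7.20 on CREB-WT arrays. Cd79b read 9.06 to 10.82 on CREB-KO and 9.68 to 10.52 on CREB-WT arrays, a difference of -0.06 ± 0.48.

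Of 15 measured dendritic cell markers 10 lay below 0 and 2 were lower, with a median of -0.13. Without CREB-WT replicate 1 the median was 0.0 and 7 of the 15 lay below 0. The list, centred on each gene's mean, stood at -0.05, -0.21 and -0.01 on CREB-KO arrays and at 0.28, 0.08 and -0.09 on CREB-WT arrays. Only on CREB-WT replicate 3 was it on the other side of 0 from Cd74 and H2-Ob. The mean of the 3 chains minus that of this list averaged -0.45 on CREB-KO arrays and 0.45 on CREB-WT arrays, a difference of -0.90, with overlap between the groups. The mean level of the dendritic cell list was 5.34 to 5.54 on CREB-KO arrays and 5.46 to 5.83 on CREB-WT arrays. The defining markers Zbtb46 (4.38 to 4.47 on CREB-KO arrays and 4.26 to 4.42 on CREB-WT arrays) and Flt3 (3.90 to 4.11 on CREB-KO and 3.91 to 4.24 on CREB-WT arrays) lay among the 6 of the 15 at or below the median cluster level. Xcr1 (3.85 to 4.62 on CREB-KO and 4.12 to 4.98 on CREB-WT arrays) was another of these. Siglech lay above that level, at 6.74, 5.72 and 6.84 on CREB-KO arrays and 6.37, 6.32 and 6.70 on CREB-WT arrays. Its difference was -0.03 ± 0.32. Cd24a, which B cells and developing T cells also express, was lower, at -1.52 ± 0.38. Tbc1d4 (0.36 ± 0.16) and Ccr7 (0.34 ± 0.28) had the highest differences on the list. The paper lists Tbc1d4 among genes that set apart Tregs with the IL-33 receptor ST2. Ccr7 read 13.20, 13.99 and 13.72 on CREB-KO arrays and 12.82, 13.55 and 13.53 on CREB-WT arrays, far above the list's mean level. The list's summaries therefore include signal that need not come from dendritic cells. Itgax, which encodes CD11c, differed by -0.59 ± 0.23, a call that ended without CREB-KO replicate 1 (-0.66), 2 (-0.46) or 3 (-0.63) or CREB-WT replicate 1 (-0.38) or 2 (-0.58). The call of Itgax held in 5 of the 14 alternatives.

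By a rule of closeness over the 6 arrays, the genes most like the mean centred profile of H2-Aa, H2-Ab1 and H2-Eb1 were named from single-gene clusters above the median level. The closest 8 of 16757 candidates, at root mean square distances of 0.25 to 0.32, were 3 immunoglobulin variable segments, the transporters Abcc3 and Slc7a8, and Fcgr1, Unc93b1 and Marco. With so many candidates and 6 arrays, closeness alone does not show a link between genes. Fcgr1 and Marco, receptors of macrophages, are also on the macrophage list. Unc93b1, a chaperone of endosomal Toll-like receptors, read 7.28, 7.03 and 6.96 on CREB-KO arrays and 8.68, 7.94 and 7.30 on CREB-WT arrays. Probes for the immunoglobulin segments can read their near-identical copies, so which segments these are is uncertain.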

How the data were processed

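RNA of sorted splenic Tregs was read on 6 single-colour arrays, 3 for each genotype in the labels. The deposited table holds log2 values that the authors made with RMA (background correction, normalization between arrays and probe summary), in Affymetrix Expression Console per the methods. The sources differ on the array type, the input RNA and the labelling kit, and for the array's genome build the sources used here give none. Values ran from 1.52 to 19.93, and 1082 clusters exceeded 16, the log2 ceiling of a common scanner, so what set the scale is unknown, and folds hold only if it is a true log2 scale.

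The members and gene lists were chosen with earlier results of these data known. Clusters were named from the platform annotation (1 symbol for 30638, several for 2176, none for 33142), with symbols updated through RefSeq GRCm38.p6. The genotypes were compared with limma 3.58.1 in R 4.3.3 on all 65956 clusters as deposited, with the default prior, two-sided, without filter or covariate, and Benjamini-Hochberg adjustment over all clusters. The study's limits, 1.5-fold and an unadjusted p of 0.05, set the calls. For a gene with several single-gene clusters, the lists used the one with the highest mean. Named genes were all member clusters, the 2 smallest p of each of 11 lists and any list gene past the limits, and the 8 closest genes to the profile of H2-Aa, H2-Ab1 and H2-Eb1 (Cd74 shares its cluster and was left out of it) and to the Cd83 cluster with the highest mean. The immunoglobulin segments among the closest genes are counted and not named. Other genes were named after their values were seen. The fit was tested on simulated data. Alternatives tried were quantile normalization, a block on the replicate number, leaving out each array, subtraction of array medians, a filter on low clusters, a trended robust prior, the methods' t-test and 1 cluster per gene. Leaving out both arrays numbered 1 was chosen after seeing the data. Array number limits the precision.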

Additional observations from a re-analysis of the deposited data

How the results depend on the processing

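The signs of the members past the study thresholds held under the 14 alternatives: of 151 member values 132 kept their side of the thresholds, 11 lost a call, 8 gained one and 0 reversed among called values. Member clusters that were lower numbered 3 over all arrays and 2 to 5 on leaving out 1 array, with 5 without CREB-WT replicate 3, where H2-Ab1 and H2-Eb1 were added. Those higher numbered 1 over all arrays and 0 to 3 on leaving out 1 array, 0 after quantile normalization, 0 with the methods' t-test and 3 without both arrays numbered 1, where H2-Oa (1.33) and the chromosome 13 cluster of Cd83 (0.78) were added. The methods' t-test also ended the call of H2-Aa. Over the whole array, 480 clusters were lower and 1067 higher. Leaving out 1 array gave 517 to 838 lower and 969 to 1618 higher, the methods' t-test 246 and 642, 1 cluster per gene 201 and 276, and leaving out both arrays numbered 1 gave 847 lower. Of all calls 31.0% were lower as deposited, 41.0% after quantile normalization (607 lower, 875 higher) and 45.9% with array medians subtracted (677 lower, 798 higher). No alternative gave a cluster with an adjusted p under 0.05.

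With the replicate number as a block, 5 member clusters were lower, as H2-Ab1 (-1.10, unadjusted limma p 0.0351) and H2-Eb1 (-1.09, unadjusted limma p 0.0403) were added, and 688 clusters of the array were lower. The numbers do not pair the animals in the labels. Deviations from the group means correlated at 0.218, 0.0175 and 0.0412 between arrays of the same number, and CREB-KO replicate 2 correlated best with CREB-WT replicate 3 (0.177).

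With 3 arrays a group the interval of H2-Ab1 ran from -2.80 to 0.60, and Ciita lay near the median of all clusters. The cause of the changes between alternatives was not tested.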

Other observations

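Cd83 is induced by T cell activation, and a list of other genes of that response was read beside it. Of 21 measured activation genes 0 were higher and 1, the nuclear receptor Nr4a3, was lower, at -0.95 ± 0.23, with a median of -0.04 over the list, which was 0.19 without CREB-KO replicate 1 (7 of 21 below 0) and 0.17 when CREB-WT replicate 3 was left out. Nr4a3 read 7.89, 8.41 and 8.51 on CREB-KO arrays and 9.24, 8.90 and 9.53 on CREB-WT arrays, without overlap. Egr2, a transcription factor downstream of the T cell receptor, differed by 0.56 ± 0.23 and did not pass. Centred on each gene's mean, the list stood at -0.34, 0.11 and 0.19 on CREB-KO arrays and at -0.22, -0.07 and 0.33 on CREB-WT arrays, with overlap between the groups. Of 15 measured T cell and Treg markers 0 passed, with a median of -0.03, which ranged from -0.15 (without CREB-KO replicate 3) to 0.15 (without CREB-KO replicate 1) on leaving out 1 array. The 2 with the smallest p were Il2ra, which encodes CD25, at -0.45 ± 0.19, and Gpr83, at -0.66 ± 0.32.

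Of 16757 candidates, those closest to the brighter Cd83 cluster in their pattern over the 6 arrays were Muc16, Gm12304, Trav9d-2, Clip3, Trav9n-2, Mrpl34, Ubxn2b and Gm14328, at root mean square distances of 0.163 to 0.193. Here too, closeness alone does not show a link. Trav9d-2 and Trav9n-2 are near-identical segments of the T cell receptor alpha locus and cannot be told apart by their probes with certainty.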
